A study of Mus musculus with 8 samples.

Results

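Of the 84 pathway genes on a quantitative PCR plate, 6 control or restrain the release of NF-kB, and their transcripts were followed in whole mouse spleen after 7 days of R848 (resiquimod) or of PBS (Mock). R848 is a synthetic imidazoquinoline that activates TLR7, a receptor for RNA in endosomes. The 6 members were chosen by name: the kinase genes *Chuk* and *Ikbkb*, and the inhibitor genes *Nfkbia*, *Nfkbib*, *Nfkbil1* and *Tnfaip3*. The plate also held 5 housekeeping genes. Each of the 8 samples was RNA pooled from 3 mice. The 6 groups were C57BL/6 wild-type mice given Mock or R848, mice labelled TLR7-/- given Mock or R848, and mice labelled IFNAR-/-, which lack the receptor for type I interferon, given Mock or R848. The daily R848 dose was 1 mg per kg. Wild type had 2 experiments for each treatment, and each deficient strain 1 pool for each. The age of the mice and the background of the deficient strains are not given in the sources used here.

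NF-kB transcription factors wait in the cytoplasm bound to inhibitors of the IkB family. When a Toll-like receptor signals through MyD88, IRAK kinases and TRAF6, the IkB kinase (IKK) complex is switched on, phosphorylates IkB and marks it for destruction, and NF-kB moves into the nucleus. NF-kB then turns on genes that end its own activity, among them those for IkB alpha and for the ubiquitin-editing enzyme A20. In spleen IKK and NF-kB act in B cells, macrophages, dendritic cells and T cells.

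The promoters of *Nfkbia* and *Tnfaip3*, the genes for IkB alpha and A20, are shown because these feedback genes, both textbook targets of NF-kB, had the lowest and the highest wild-type response among the members. Both sequences are the 250 bases before the gene's start in RefSeq (GRCm38.p6, minus strand, 5′ to 3′), from chr12:55492648-55492897 for *Nfkbia* and chr10:19015411-19015660 for *Tnfaip3*. Capitals mark matches to the 10-base NF-kB consensus (the kB site), searched on both strands.
Nfkbia: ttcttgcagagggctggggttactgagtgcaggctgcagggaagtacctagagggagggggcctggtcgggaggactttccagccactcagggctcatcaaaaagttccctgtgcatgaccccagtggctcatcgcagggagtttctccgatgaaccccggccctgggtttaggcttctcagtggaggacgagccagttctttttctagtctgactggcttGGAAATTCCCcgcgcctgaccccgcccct
Tnfaip3: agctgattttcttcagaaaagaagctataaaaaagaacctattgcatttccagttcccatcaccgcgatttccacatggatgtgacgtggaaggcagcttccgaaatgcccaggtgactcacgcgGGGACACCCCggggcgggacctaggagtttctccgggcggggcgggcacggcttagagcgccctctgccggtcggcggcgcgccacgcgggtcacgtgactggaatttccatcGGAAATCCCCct
The *Nfkbia* window held 1 match, GGAAATTCCC, which runs from 29 to 20 bases before the start. The *Tnfaip3* window held 2 matches, GGAAATCCCC from 12 to 3 bases and GGGACACCCC from 125 to 116 bases before the start. The same search over 250 bases before to 50 bases after the start found a match in 8.46% of 32851 mouse promoter windows. Of the 6 members 5 had such a window in the RefSeq table, and *Chuk*, *Nfkbib*, *Nfkbil1* and the second start of *Tnfaip3* had no match in theirs. A looser pattern, GGG and CC around any 5 bases, was met by 50.8% of all windows, and by those of *Nfkbia*, *Tnfaip3* (both starts), *Chuk* and 1 of the 2 starts of *Nfkbil1*. A match is a run of letters and not a measured binding site.

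Levels are delta-Ct values in cycles, the threshold cycle of a gene minus the mean of *Hprt1*, *Hsp90ab1* and *Gapdh*, so a lower value is a higher level and 1 cycle is a 2-fold difference. The response of a gene is its log2 difference, R848 over Mock, so the Mock delta-Ct less the R848 delta-Ct. The tables give 1 value per gene, strain and treatment, which for wild type is the mean of both experiments. With no replicate error at hand nothing was tested and no order of levels is backed by replicates, so "higher" and "lower" describe these pools only. In the columns of the deficient strains all 89 values lay on a grid of 0.1 cycles, the step at which readings were kept. Differences of about this size are within that rounding. In whole spleen, fewer cells of a type and less RNA per cell cannot be told apart.

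The reference genes crossed the threshold at different cycles in the 6 columns. For wild type the reference genes had a mean Ct of 21.85 with Mock and of no more than 18.33 with R848. The TLR7-labelled columns had 19.90 and 19.37, and the IFNAR-labelled columns 22.57 and 20.07. Readings above 35 cycles had been set to 35, and no column value of a member lay at that cap. A wild-type mean could still hold 1 experiment at the cap. The latest member was *Chuk*, at 32.15 cycles in wild-type Mock and 32.2 in IFNAR-labelled Mock, still 2.85 and 2.80 cycles before the cap. *Tlr7* itself read 9.20 with Mock and 9.33 with R848 in the TLR7-labelled columns, 12.00 and 9.47 in wild type, and 10.43 and 8.23 in the IFNAR-labelled columns. Among the Mock columns its level was thus highest in the one labelled TLR7-/-. Where its PCR product lies relative to the deletion is not given, so this checks no label. The plate held no interferon receptor gene.

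Among the members R848 went with a higher level of *Tnfaip3* in every strain and, in wild type, with a lower level of *Nfkbia*. In wild type 1 of 6 members was at least 2-fold higher (*Tnfaip3*) and 1 at least 2-fold lower (*Nfkbia*), against 38.1% and 13.1% of all 84 pathway genes. In TLR7-labelled mice no member lay 2-fold away in either direction, against 4.76% of the plate higher and 3.57% lower. In IFNAR-labelled mice 3 of 6 were at least 2-fold higher (*Tnfaip3*, *Ikbkb* and *Nfkbib*) and none was 2-fold lower, against 53.6% and 2.38%. With 6 members, counts this close to the plate's shares are no result about the members. The shares are of all 84 genes, of which 5, 5 and 9 had no known direction because a column was at the cap. Those genes could not be called, while every member could. The median response of the 6 members was -0.12 in wild type, -0.13 in TLR7-labelled mice and 1.05 in IFNAR-labelled mice, and that of all 84 genes was 0.41, 0.07 and 1.25.

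**Figure D1:**
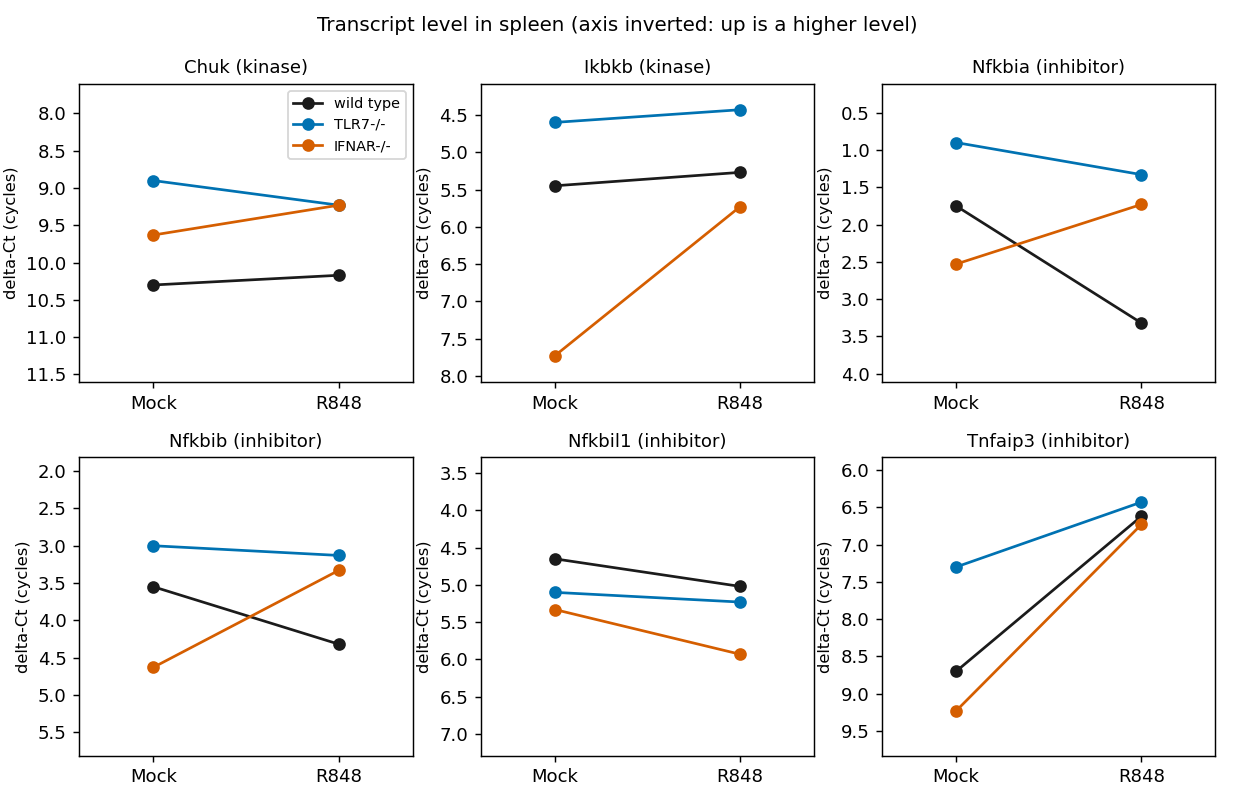
Delta-Ct in cycles (vertical axis, inverted so that up is a higher level) of each member in Mock and R848 spleen; each point is 1 deposited value, for wild type the mean of 2 experiments, and each line joins the columns of a strain. The 3 R848 points of *Tnfaip3* lie within 0.30 cycles of each other, while its Mock points span 1.93 cycles.

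The IKK kinases come first in the chain. *Chuk*, which encodes IKK alpha, read 10.30 cycles with Mock and 10.17 with R848 in wild type, 8.90 and 9.23 in TLR7-labelled mice, and 9.63 and 9.23 in IFNAR-labelled mice. Its level was lowest in both wild-type columns and the treatments differed by less than a cycle in every strain. The log2 differences were 0.13, -0.33 and 0.40. *Ikbkb* encodes IKK beta, the kinase that carries most of the signal from Toll-like receptors to IkB alpha. Its delta-Ct was 5.45 with Mock and 5.27 with R848 in wild type, 4.60 and 4.43 in TLR7-labelled mice, and 7.73 and 5.73 in IFNAR-labelled mice. The IFNAR-labelled Mock column stood apart, 2.28 cycles above wild-type Mock and 3.13 above TLR7-labelled Mock. Its log2 differences were accordingly 0.18 and 0.17 in the first 2 strains and 2.00, or 4-fold, in IFNAR-labelled mice. In R848 spleen the IFNAR-labelled value was still the highest delta-Ct of the 3, by 0.46 cycles over wild type.

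*Nfkbia* encodes IkB alpha, the inhibitor that is destroyed and made anew in each round of signalling. It read 1.75 cycles with Mock and 3.32 with R848 in wild type, 0.90 and 1.33 in TLR7-labelled mice, and 2.53 and 1.73 in IFNAR-labelled mice. Its lowest level of all 6 columns was that of wild-type R848, 1.99 cycles above the R848 column of TLR7-labelled mice and 1.59 above that of IFNAR-labelled mice. The log2 differences were -1.57, a level 2.97-fold lower with R848, then -0.43 and 0.80. Among genes of known direction its response ranked 75 of 79 in wild type, 67 of 79 in TLR7-labelled mice and 49 of 75 in IFNAR-labelled mice, where rank 1 is the highest. Each of these ranks was shared with other genes. Such ranks do not depend on the reference genes.

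*Nfkbib* encodes IkB beta, an inhibitor that is degraded more slowly. Its delta-Ct was 3.55 with Mock and 4.32 with R848 in wild type, 3.00 and 3.13 in TLR7-labelled mice, and 4.63 and 3.33 in IFNAR-labelled mice. It followed the pattern of *Nfkbia* with smaller steps in wild type, and its log2 differences were -0.77, -0.13 and 1.30. Wild type was below 0 and IFNAR-labelled mice above 0. *Nfkbil1* encodes an IkB-like protein with ankyrin repeats whose part in the pathway is less settled. Its delta-Ct was 4.65 with Mock and 5.02 with R848 in wild type, 5.10 and 5.23 in TLR7-labelled mice, and 5.33 and 5.93 in IFNAR-labelled mice. It varied least of the 6 members over all columns, by 1.28 cycles. Its log2 differences of -0.37, -0.13 and -0.60 were the only ones of a member below 0 in all 3 strains, and with *Hsp90ab1* alone as reference the wild-type value was 0.15 and the TLR7-labelled value 0.

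*Tnfaip3* encodes A20, which removes activating ubiquitin chains from signalling proteins upstream of IKK. Its delta-Ct was 8.70 with Mock and 6.62 with R848 in wild type, 7.30 and 6.43 in TLR7-labelled mice, and 9.23 and 6.73 in IFNAR-labelled mice. All 3 R848 values lay above the level of all 3 Mock values, and this was so for no other member. Elsewhere on the plate it was so for many genes, among them *Nfkb1*, *Map2k3*, *Tlr1*, *Tollip*, *Tirap* and the reference gene *Hprt1*. It therefore does not set *Tnfaip3* apart from the plate. The log2 differences of *Tnfaip3* were 2.08, 0.87 and 2.50, or 4.23-fold, 1.83-fold and 5.66-fold. The R848 levels were within 0.30 cycles of each other, so the unequal responses go with unequal Mock levels. Its response ranked 17 of 79 in wild type, 5 of 79 in TLR7-labelled mice and 19 of 75 in IFNAR-labelled mice. Its rank in TLR7-labelled mice was shared with *Tollip* and *Ppara*, both also at 0.87.

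**Figure D2:**
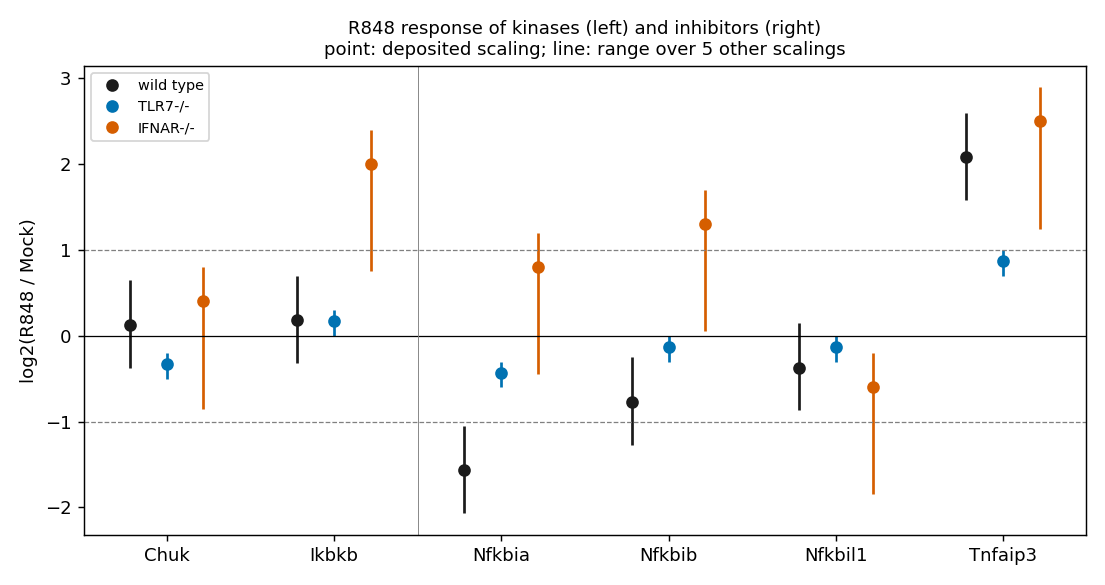
Log2 ratio of R848 over Mock (vertical axis) for the 2 kinases and 4 inhibitors in 3 strains; points use the deposited scaling, and vertical lines span that value and 5 other scalings and are not errors. *Tnfaip3* lies above 0 throughout, *Nfkbia* lies between -2.07 and -1.05 in wild type, and the widest lines belong to IFNAR-labelled mice.

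The choice of reference genes bears on most of these values. The housekeeping genes outside the reference were themselves higher with R848, *Gusb* by 1.88, 0.47 and 1.5 log2 units and *Actb* by 0.63, 0.07 and 1.60, in wild type, TLR7-labelled and IFNAR-labelled mice. In wild type *Nfkbia* spanned -2.07 to -1.05 and *Tnfaip3* 1.58 to 2.60 over the scalings, past 2-fold in each of the 5 alternatives. The signs of *Chuk* and *Ikbkb* in wild type turned in 4 of 5. In IFNAR-labelled mice the plate itself sat high. Centring on its median gene, a shift of -1.25, brought *Ikbkb* to 0.75, *Nfkbib* to 0.05 and *Nfkbia* to -0.45. *Tnfaip3* was then at 1.25 and *Nfkbil1* at -1.85. This median counts genes at the cap. Without them the plate's median was higher and exceeded the response of *Nfkbib*, whose centred value would then be negative.

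Differences between 2 members within a column do not depend on the reference genes. A gap between delta-Ct values of different genes also holds primer effects, so only its change is read. The gap of *Tnfaip3* over *Nfkbia* was 6.95 cycles with Mock and 3.30 with R848 in wild type, 6.40 and 5.10 in TLR7-labelled mice, and 6.70 and 5.00 in IFNAR-labelled mice. The Mock gaps were close to each other and all 3 R848 gaps were below them. The transcript ratio of A20 to IkB alpha was thus higher with R848 by 12.6-fold in wild type, 2.46-fold in TLR7-labelled mice and 3.25-fold in IFNAR-labelled mice. These genes had the highest and the lowest response of the members in wild type and in TLR7-labelled mice, so their pair is the widest there by construction. In IFNAR-labelled mice the lowest was *Nfkbil1*, which parted from *Tnfaip3* by 3.10 on the log2 scale.

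The 2 classical IkB genes stayed closer together. The gap of *Nfkbib* over *Nfkbia* was 1.80 cycles in Mock and 1.00 in R848 in wild type, 2.10 and 1.80 in TLR7-labelled mice, and 2.10 and 1.60 in IFNAR-labelled mice. It was smaller with R848 in each strain, by 0.80, 0.30 and 0.50 cycles. *Ikbkb* minus *Chuk* was -4.85 cycles with Mock and -4.90 with R848 in wild type, -4.30 and -4.80 in TLR7-labelled mice, and -1.90 and -3.50 in IFNAR-labelled mice. The kinases thus kept their ratio within 0.05 log2 units in wild type and shifted toward *Ikbkb* by 1.60 in IFNAR-labelled mice. *Nfkbia* minus *Ikbkb* was -3.70 cycles with Mock and -1.95 with R848 in wild type, -3.70 and -3.10 in TLR7-labelled mice, and -5.20 and -4.00 in IFNAR-labelled mice. Relative to *Ikbkb*, *Nfkbia* was thus lower with R848 in every strain, by 3.36-fold, 1.52-fold and 2.30-fold. *Nfkbil1* and *Nfkbib* parted in IFNAR-labelled mice, where their gap was 0.70 in Mock and 2.60 in R848. Their pair was not among those planned.

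**Figure D3:**
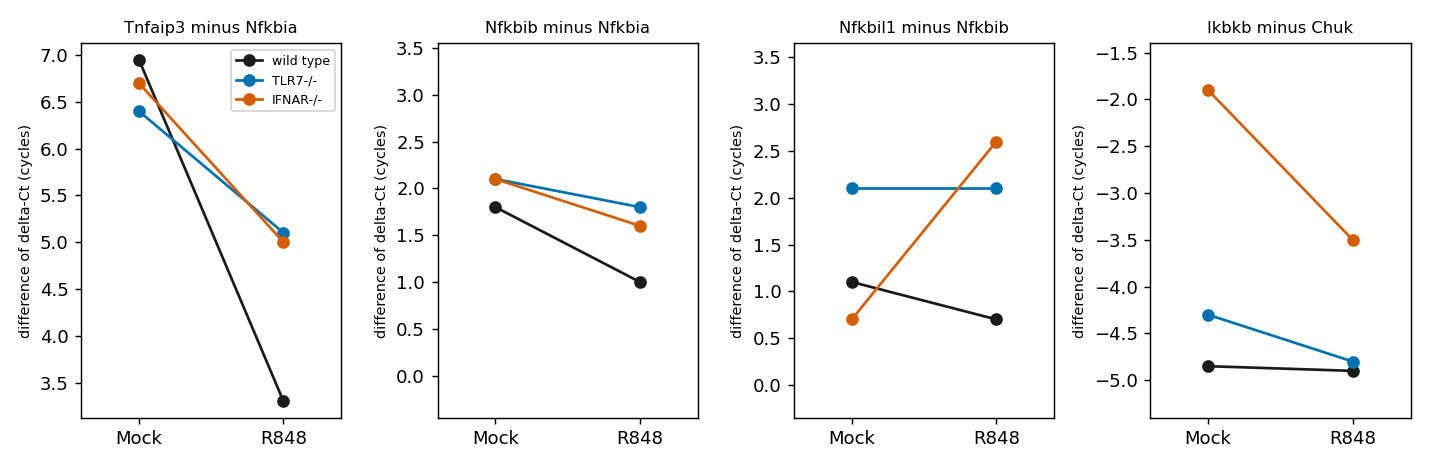
Difference of delta-Ct between 2 members of the same column in cycles (vertical axis), in Mock and R848 spleen of 3 strains; each point comes from 1 deposited column and is free of the reference genes. The gap of *Tnfaip3* over *Nfkbia* is 3.30 cycles in wild-type R848, against 5.10 and 5.00 in the R848 columns of the deficient strains.

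Responses were set side by side between strains. With 1 pool per treatment in each deficient strain, a difference cannot be assigned to TLR7 or to interferon signalling. The wild-type response minus the TLR7-labelled one was 1.21 for *Tnfaip3* and -1.14 for *Nfkbia*, and within 1 log2 unit for the other members, though *Nfkbib* reached -1.03 with 5 housekeeping genes. Over the 5 other scalings these 2 differences ran from 0.82 to 1.60 and from -1.53 to -0.75. The wild-type response minus the IFNAR-labelled one was -2.37 for *Nfkbia*, -2.07 for *Nfkbib* and -1.82 for *Ikbkb*, and -0.42, -0.27 and 0.23 for *Tnfaip3*, *Chuk* and *Nfkbil1*. After centring on the median gene the first 3 were -1.53, -1.23 and -0.98, and *Nfkbil1* reached 1.08. Both sets of differences share the wild-type columns.

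The Mock columns also differed between strains. Of the 6 members, 5 had a higher delta-Ct in wild-type Mock than in TLR7-labelled Mock, and all 6 had a higher one in IFNAR-labelled Mock than in TLR7-labelled Mock. The plate's medians, given next, were shifted the same way, so these counts are no result about the members. Wild-type minus TLR7-labelled Mock had a median of 0.85 cycles over the members and 1.00 over the 69 pathway genes never at the cap. TLR7-labelled minus IFNAR-labelled Mock had a median of -1.63 over both. The R848 columns of these 2 strains lay closer, with medians of -0.35 over the members and -0.10 over the 69 genes. With TLR7-labelled Mock as the control for every strain, *Tnfaip3* stood at 0.68 in wild type and 0.57 in IFNAR-labelled mice, *Nfkbia* at -2.42 and -0.83, *Nfkbib* at -1.32 and -0.33, *Chuk* at -1.27 and -0.33, and *Ikbkb* at -0.67 and -1.13. The TLR7-labelled response of *Tnfaip3*, 0.87, was then the highest of the 3 strains.

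The rest of the NF-kB route was read from lists of plate genes. Of the 4 subunit genes, *Nfkb1* (p105/p50) responded with 2.33 log2 units in wild type, 0.77 in TLR7-labelled mice and 3.70 in IFNAR-labelled mice, which is also the order of the plate's medians. *Rela* (p65) had 0.38, 0.37 and 2.20, *Nfkb2* (p100/p52) -0.47, 0.27 and 1.90, and *Rel* (c-Rel) 0.53, -0.03 and 0.80. The subunit list had 1 of 4, 0 of 4 and 3 of 4 genes at least 2-fold higher, against 38.1%, 4.76% and 53.6% of the plate, and none 2-fold lower. Upstream of the kinases 15 listed genes were on the plate. These counts, too, are read against the plate's shares given above. In wild type 7 of the 15 were at least 2-fold higher, 3 lower and 1 of open direction because a column was at the cap, from *Tollip*, which restrains IRAK (3.08), to *Ripk2*, the kinase of NOD receptors (-1.77). In TLR7-labelled mice none of the 15 was 2-fold away, with 2 open, and values ran from 0.87 (*Tollip*) to -0.43 (*Tradd*). In IFNAR-labelled mice 9 were higher, 1 lower and 2 open, from *Ticam1*, the adaptor of TLR3 (3.70), to *Tradd*, the adaptor of the TNF receptor (-1.10).

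Among 15 NF-kB-inducible products, which unlike the members mostly encode secreted proteins, 3 were at least 2-fold higher in wild type, 5 lower and 3 open, where 38.1% of the plate was higher and 13.1% lower. They ran from *Il10*, an anti-inflammatory cytokine (4.23), to *Cd80*, a co-stimulatory ligand (-1.97). In TLR7-labelled mice 1 was higher, *Ptgs2* (1.17), and 1 lower, *Ccl2* (-5.43), with 2 open, against 4.76% and 3.57% of the plate. *Ccl2* sits among the plate's first wells, where *Btk* and *Cd14* were at the cap in columns of the deficient strains. In IFNAR-labelled mice 8 were higher (53.6% of the plate), none lower and 2 open, from *Il10* (at least 7.60, with Mock at the cap) to *Lta* (0.10). The list medians were -0.27, -0.03 and 1.10, while those of the 4 inhibitors were -0.57, -0.13 and 1.05 and those of the 2 kinases 0.16, -0.08 and 1.20.

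**Figure D4:**
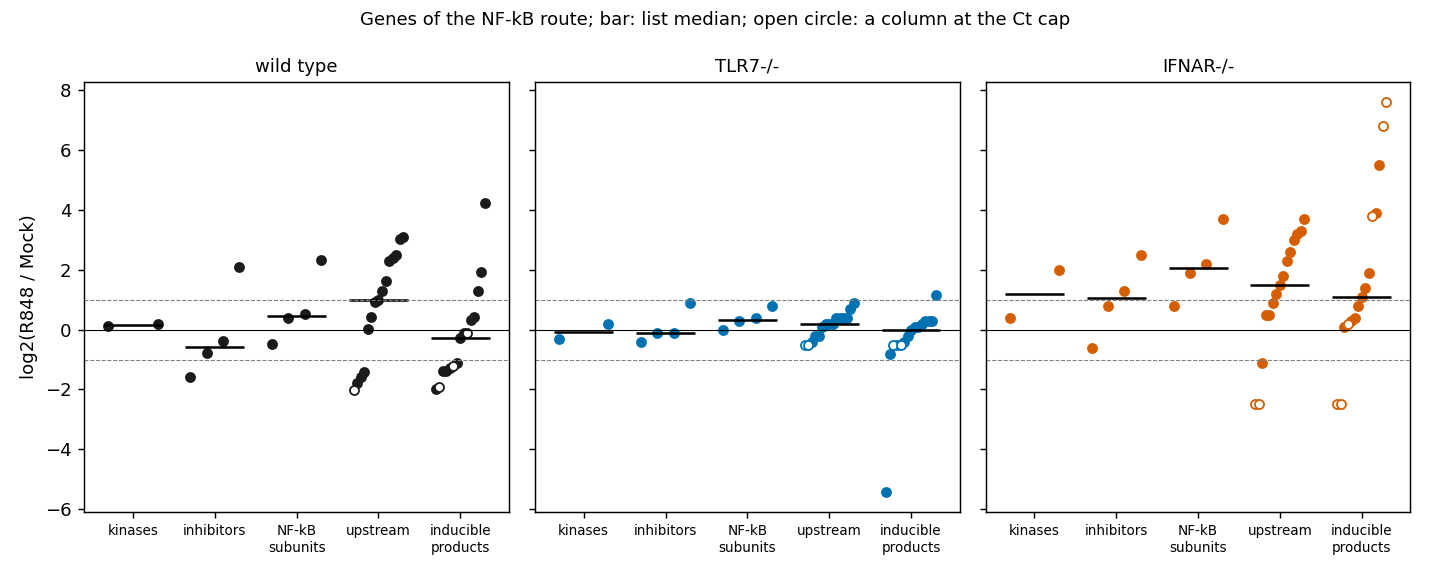
Log2 ratio of R848 over Mock (vertical axis) for each gene of the NF-kB route, by list and strain; points are genes, bars are list medians, and open circles are genes with a column at the Ct cap. The members, from -1.57 to 2.08 in wild type and from -0.60 to 2.50 in IFNAR-labelled mice, lie inside the range of the upstream list in both.

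For each member the genes with the most similar response over the 3 strains were found by the root mean square of the differences, which no choice of reference moves. For *Chuk* they were *Tbk1*, an IKK-related kinase (0.26 log2 units), and *Ly96* (0.37), where the median over 68 genes was 1.10. For *Ikbkb* they were *Rela* (0.20) and, tied, *Irak2* and *Tlr2* (0.23 each). For *Nfkbia* they were *Ripk2* (0.24) and *Csf2* (0.26), for *Nfkbib* *Muc13* (0.44) and *Ly86* (0.44), and for *Nfkbil1* *Hspd1* (0.22) and *Fadd* (0.38). For *Tnfaip3* they were *Tlr6* (0.36) and, tied, *Map2k3* and *Mapk8* (0.43 each). This likeness rests on 3 values per gene and is one of responses, not of levels. Over the 6 columns the Pearson correlation of levels was -0.48 for *Chuk* and *Ly96* and -0.45 for *Nfkbil1* and *Fadd*. It was above 0 for the other genes named here.

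Lists for cell types of the spleen were read beside these values, as summed levels in units of the reference genes. For 7 myeloid genes the sum was 0.366 with Mock and 0.433 with R848 in wild type, 0.438 and 0.422 in TLR7-labelled mice, and 0.215 and 0.484 in IFNAR-labelled mice. For 3 B cell-associated genes it was 0.127 and 0.102, then 0.167 and 0.146, then 0.0689 and 0.186 in the same order. *Btk* was at the cap in all 4 columns of the deficient strains and *Cd14* in 2 of them. Both sit, with *Casp8* and *Ccl2*, in the plate's first 4 wells, which hold no member. Without both genes the wild-type B cell sum was 0.0684 with Mock and 0.0828 with R848, the other way round. For 3 T and NK cell products the sums were 0.0122 and 0.00531, then 0.0202 and 0.0208, then 0.00637 and 0.00762. For 3 stromal and epithelial genes they were 0.00402 and 0.00530, then 0.00673 and 0.00751, then 0.00211 and 0.00631. In wild type the T and NK sum and *Nfkbia* were both lower with R848, and most of that sum is *Lta*. Of its 3 genes *Lta* (-1.37) and *Il2* (-1.57) were lower in wild type and *Ifng* was higher (0.38). Most of the myeloid sum is *Ly86* and *Pglyrp1*. In wild type 5 of the 7 myeloid genes were higher with R848, up to *Tlr4* (4.58), while *Ly86* (-0.47) and *Ly96* (-0.12) were lower. In IFNAR-labelled mice the myeloid, B cell, T and NK and stromal sums and *Ikbkb* were all higher with R848. The plate's median response there was 1.25, so a rise was common to most genes. *Cd14* went the other way, with its R848 column at the cap. The part of cell composition in the members' values was not tested, and no gene restricted to a single cell type was on the plate.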

How the data were processed

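Whole-spleen RNA pooled from 3 mice per sample was transcribed and read on an RT² Profiler plate with 50 ng of RNA per reaction, per the labels' protocols. The authors' deposited tables, 1 per strain, hold delta-Ct, a log2 measure in cycles, per the file headers. The authors replaced missing readings and those above 35 cycles by 35 and summarised 2 wild-type experiments, per the series' design. The deposited fold differences, a ratio of R848 over Mock, matched those recomputed here for 89 of 89 genes in each table, allowing for rounding. Strain was taken from each table's name and treatment from its column names. The tables' 6 columns of linear levels per sample were not used.

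The highest delta-Ct shared by at least 2 genes of a column was taken as the Ct cap (within 0.01 cycles). A difference with a column at the cap is a bound or has an open direction. No test was run, since each treatment has 1 value per strain. The calling code was run on simulated plates with large known changes and little noise. That run checks the code only and not the calls on these pools. The members and lists were chosen with earlier results of these data known. Named besides the members were the housekeeping and subunit genes, the nearest 2 genes per member with ties, and the highest and lowest gene of known direction in the upstream and product lists per strain. *Cd14*, *Btk*, *Casp8*, *Tlr4*, *Tlr7*, *Pglyrp1*, *Ifng*, *Il2* and *Ppara* were added after their values were seen. Promoters came from RefSeq (GRCm38.p6). Alternatives were *Hprt1*, *Hsp90ab1* or *Gapdh* alone, the 5 housekeeping genes together, the plate's median gene as zero, lists without capped genes, Pearson correlation for likeness, a looser promoter pattern, 1.5-fold and 3-fold thresholds, and another Mock column. Python 3.11.15, numpy 2.4.6 and pandas 2.3.3 were used.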

Additional observations from a re-analysis of the deposited data

Results flagged for a closer look

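*Nfkbia* and *Nfkbib* had responses of opposite sign in wild type and in IFNAR-labelled mice. For *Nfkbia* the log2 difference was -1.57 in wild type and 0.80 in IFNAR-labelled mice, which differ by -2.37. For *Nfkbib* the values were -0.77 and 1.30, which differ by -2.07. The difference was not tested, since each strain has 1 value per treatment in the tables used here. Relative to the median gene of the plate the values were -1.98 and -0.45 for *Nfkbia*, which then share a sign. For *Nfkbib* they were -1.18 and 0.05. That median counts genes at the cap, and without them it lay above 1.30 in IFNAR-labelled mice. Centred on the median without capped genes, *Nfkbib* would be negative in both strains, so its signs would no longer differ. With the Mock column of TLR7-labelled mice as the control for both strains, the values were -2.42 and -0.83 for *Nfkbia* and -1.32 and -0.33 for *Nfkbib*, so neither gene kept opposite signs.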

How the results depend on the processing

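In wild type the count of members at least 2-fold higher stayed at 1 under each of the 5 scalings, and 2 rather than 1 were lower (*Nfkbia* and *Nfkbib*) with *Hprt1* alone, *Gapdh* alone, 5 housekeeping genes or centring on the median gene. At 1.5-fold 2 were lower and at 3-fold 0. In TLR7-labelled mice 1 member, *Tnfaip3*, was higher with *Hsp90ab1* alone or at 1.5-fold. In IFNAR-labelled mice 1 was lower (*Nfkbil1*) with *Hprt1* alone, 5 housekeeping genes, centring or at 1.5-fold, and after centring 1 was higher. The higher count there was 2 with *Hprt1* alone, 5 housekeeping genes or at 3-fold, and 4 with *Hsp90ab1* alone or at 1.5-fold. *Nfkbib* fell short of 2-fold in 3 of the 5 scalings (0.90, 0.68 and 0.05). With the Mock column of TLR7-labelled mice as control, 0 were higher and 3 lower in wild type, and 0 higher and 1 lower in IFNAR-labelled mice. Under that control 4 of 6 members turned below 0 in IFNAR-labelled mice, *Ikbkb* (-1.13), *Nfkbib* (-0.33), *Chuk* (-0.33) and *Nfkbia* (-0.83). In wild type *Chuk* (-1.27), *Ikbkb* (-0.67) and *Nfkbil1* (0.08) turned sign. The cause was not tested. Over the 5 scalings, values of members past 2-fold were still past it in 10 of 10 cases in wild type. In IFNAR-labelled mice they were in 11 of 15. None of these values turned sign under the 5 scalings. *Nfkbib* in IFNAR-labelled mice would do so if the plate's median left out genes at the cap. By Pearson correlation over the 6 columns, 2 of the 14 nearest genes were again among the nearest 2, *Tbk1* for *Chuk* and *Irak2* for *Ikbkb*. Without genes at the cap the median of the upstream list was 1.13 in wild type and 1.80 in IFNAR-labelled mice, and that of the product list -0.20 in wild type. No paired analysis was possible because the tables used here give the wild-type experiments as 1 mean per treatment, and for the same reason no replicate could be left out. The late reference genes of the Mock columns in wild type and in IFNAR-labelled mice limit how far down those columns could see.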
